A study of Drosophila melanogaster with 23 samples.

Results

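The genes described here are 365 weakly expressed protein-coding genes of the Drosophila melanogaster X chromosome, out of 17606 genes in the table, and they are called weak X genes below. They were chosen by position and by control level. Their starts lie more than 750 kb from positions 3857230 and 11579065 of the X, where the genes of the RNAs roX1 and roX2 lie, and below 22.4 Mb. Their mean level over the libraries of the genotypes yw and H3.3CtrlH3.2HWT was from 0.02 to 2 CPM, a count scaled to the size of its library, and odorant, gustatory and ionotropic receptor genes were dropped. Of 2169 protein-coding X genes, 1845 met the terms on position and receptors, and of these 1310 lay above the level range, called strong X genes below, and 170 below it. Because the levels of both controls chose the genes, those levels are a description and not a finding. Just inside the upper limit stood boil at 1.96 CPM and the bHLH factor gene HLH3B at 1.89, and just outside it CG15478 at 2.00 and CG15456 at 2.09. Just inside the lower limit stood PPYR1 at 0.0204 CPM and CG15059 at 0.0204, and just outside it CG42705 at 0.0192 and Prosbeta2R1 at 0.0191.

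In flies, males raise transcription of their single X through the dosage compensation complex, which holds roX RNA and acetylates lysine 16 of histone H4 over the bodies of active genes. The complex first loads at high-affinity sites, the roX genes among them, and spreads to active genes that carry methylation of lysine 36 of histone H3 (H3K36), the trimethyl form of which is made by Set2. Genes that are nearly silent carry little of either mark, so they are a group of X genes on which this system is thought to act least.

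The study concerns Set2, H3K36 and dosage compensation, and its samples here were pools of male and female whole larvae of stage L1, raised at 25 °C, 25 to 30 larvae a sample. Total RNA was measured in 23 libraries of 6 genotypes. The genotype yw had 3 libraries and each other genotype 4. Set21 carries an allele of Set2. The other genotypes name alleles of the replication-independent histone H3.3 and of a replicated histone. H3.3CtrlH3.2HWT is called the histone control below, with control H3.3 and H3.2 labelled HWT. H3.3CtrlH4K16R, called H4K16R, has control H3.3 and H4 with lysine 16 changed to arginine. H3.3K36RH3.2HWT, called H3.3K36R, has lysine 36 changed in H3.3, and H3.3K36RH3.2K36R, called combined H3K36R, has it changed in H3.3 and H3.2. The labels give no chromosome or marker background beyond these names, so genotype and stock background cannot be told apart. Sexes were pooled, so no value below is that of males alone, and in whole larvae fewer cells of a type and less RNA per cell cannot be told apart.

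Library totals ran from 111138070 to 157973821 counts, so 10 counts were 0.0633 to 0.0900 CPM, and values below that rest on a few counts. Set2 itself was at 4.97 to 7.69 CPM in Set21 and at 70.4 to 82.4 CPM in yw. Markers of larval tissues were detected in every genotype, among them elav, nSyb and brp of neurons and Mhc and up of muscle, while the fat body marker Lsp2 was near 0. Replicate 3 of H4K16R stood apart from the other 3 libraries of its genotype on an axis of spread, with a score of 102.3 against -27.7 to -15.7. The axis is the main one of spread within genotypes over the histone control, H4K16R, H3.3K36R and combined H3K36R. Replicate 3 of H4K16R thus helped to set it. The yw and Set21 libraries did not, and were scored on it afterwards. Replicate 3 was also the highest of the histone control, at 46.7 against -27.6 to -2.92, of combined H3K36R, at 8.85 against -37.0 to -27.9, and of H3.3K36R, whose libraries ran from -16.1 to 63.3. The Set21 libraries scored 73.1 to 90.0 on that axis and the yw libraries 6.45 to 12.6. Results that rest on replicate 3 of H4K16R are given with and without it.

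Weak X genes were short and simple in structure. Their median span was 1.5 kb, against 3.41 kb for strong X genes and 1.36 kb for 2501 genes of chromosome 2 and 3 arms picked by the same level rule (weak genes of arms 2 and 3). A single exon block made up 27.1% of weak X genes, 24.95% of the weak genes of arms 2 and 3 and 9.54% of strong X genes, and a single annotated transcript was given for 66%, 69.7% and 31.8%. Most had no name beyond a number, with a CG symbol for 259 and another symbol for 106. Of the 365 genes, 123 lay inside another annotated gene and 77 had an exon that overlaps an exon of another gene, so their counts are uncertain. Positions are those of the BDGP6.54 annotation.

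Many weak X genes lay next to each other. Among the 1845 protein-coding genes in a row, 165 of the weak genes (45.2%) had a weak gene on at least 1 side. Of the other 1480 genes of the row 478 (32.3%) had one. The longest run held 6 genes, from 8470888 to 8489535, and consisted of the chorion genes Cp7Fa, Cp7Fb, Cp7Fc, Cp36 and Cp38 and the ovary gene otu. A run of 5 from 14909873 to 14928944 held CG14406, CG12398, Eo, CG9503 and CG32591, several of which encode oxidoreductases of the glucose-methanol-choline family. A run of 3 from 2720468 to 2727568 held fs(1)Yb, fs(1)Ya and vilya, genes of the ovary, the egg and meiosis.

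Of the 365 genes, 350 had enough counts to be tested and 15 did not. Of the 350, 15 passed the count filter only through the libraries of combined H3K36R, and 1 only through those of Set21. Each comparison was tested with edgeR's quasi-likelihood test over 14365 genes, with p-values adjusted by the Benjamini-Hochberg method and a call at an adjusted p below 0.05. Fold changes are on the log2 scale and are followed by their SE. The 3 comparisons of combined H3K36R share its libraries, and those against the histone control share that control, so their calls are not independent of each other. The comparisons of combined H3K36R with H3.3K36R and with H4K16R use no library that chose the genes.

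In combined H3K36R more weak X genes were higher than lower, in all 3 comparisons of that genotype. Against the histone control 52 of the 350 were higher and 18 lower, 14.9% and 5.14%. Over all genes tested 39.2% were called, 16.4% higher and 22.8% lower, and among the weak genes of arms 2 and 3 8.38% were higher and 5.89% lower. The median log2 fold change of the weak X genes was 0.35, that of the weak genes of arms 2 and 3 was 0.06 and that of all genes tested was -0.02. The libraries of both genotypes did not overlap for 106 of the weak X genes, against 42.6% of all genes tested. Without control replicate 3 the calls were 44 and 17, and without combined H3K36R replicate 3 they were 49 and 18. Of the 15 genes that passed the filter only through combined H3K36R, 1 was among the 52. Weak genes had a median SE of 0.67 on the log2 scale and strong X genes of 0.13, so smaller changes could be called among strong genes.

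The comparisons that use no library of the rule gave the same kind of count. Against H3.3K36R, 58 weak X genes (16.6%) were higher and 19 (5.43%) lower, where 47.7% of all genes tested were called, 19.7% higher and 28.0% lower, and 11% and 7.56% of the weak genes of arms 2 and 3 were. Against H4K16R, 65 (18.6%) were higher and 26 (7.43%) lower, where the same shares were 18.3% and 26.8% of all genes tested, and 10.4% and 9.93% of the weak genes of arms 2 and 3. Over all genes tested 45.2% were called against H4K16R. The libraries did not overlap for 88 weak X genes against H3.3K36R and for 97 against H4K16R, where 49.7% and 44.5% of all genes tested did not. Without replicate 3 of H4K16R the counts were 66 higher and 15 lower. Of the genes that passed the filter only through combined H3K36R, 3 were among the 58 and 2 among the 65. The median log2 fold change was 0.37 against H3.3K36R and 0.42 against H4K16R, and 0.13 and 0.02 in the weak genes of arms 2 and 3. In the comparison with H4K16R, 13 of the 107 tested genes in the lowest tercile of control level were higher and 1 was lower. The middle tercile had 22 higher and 7 lower of 121, and the highest 30 and 18 of 122. Without replicate 3 of H4K16R, left out here after the values were seen, these counts were 10 and 2, 24 and 3, and 32 and 10. With all libraries the median SE was 1.20, 0.65 and 0.36 from the lowest tercile up, so smaller changes could be called in the highest. The mean log2 difference over all members of a tercile was 0.33, 0.48 and 0.25 in the same order.

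**Figure D1:**
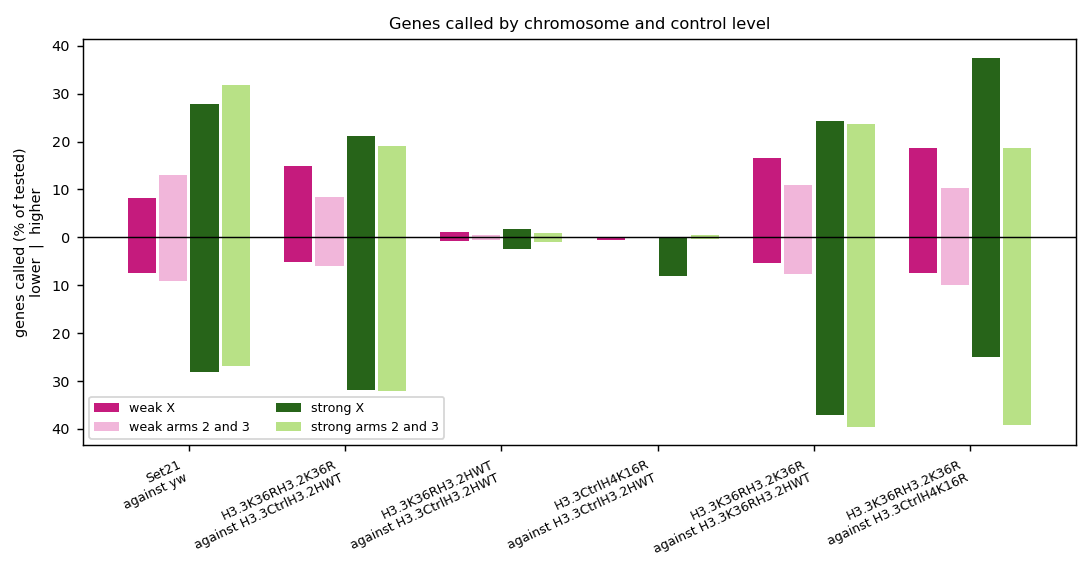
Percent of tested genes called higher (above 0) and lower (below 0) in each of the 6 comparisons, for weak and strong genes of the X and of arms 2 and 3. In the 3 comparisons of combined H3K36R the weak X bars stand at 14.9% to 18.6% higher and 5.14% to 7.43% lower, while the strong X bar for H4K16R against the control reaches 8.02% lower.

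The level of all 365 genes, tested or not, was taken in each library as the mean of log2(CPM + 0.1), minus the same mean over the weak genes of arms 2 and 3. This difference was 0.238 ± 0.037 (SD, n = 4) in combined H3K36R, with libraries at 0.214 to 0.292. It was 0.009 ± 0.032 in the histone control, 0.063 ± 0.046 in H3.3K36R and -0.055 ± 0.079 in H4K16R (n = 4 each). It was 0.009 ± 0.016 in yw (n = 3) and -0.055 ± 0.048 in Set21 (n = 4). Every combined H3K36R library lay above every other library. The size of the shift depends on the pseudocount: from the histone control to combined H3K36R it was 0.228 with 0.1, 0.0896 with 1 and 0.299 with 0.02. Without the 10 genes that reached the highest level in any single library, left out after their values were seen, the summed level of the weak X genes was 252 ± 7.59 CPM in combined H3K36R and 169 ± 9.39 CPM in the histone control. Strong X genes minus strong genes of arms 2 and 3 gave another order, with 0.227 ± 0.012 in combined H3K36R, 0.203 ± 0.007 in the histone control and -0.021 ± 0.050 in H4K16R. The 4 H4K16R libraries were the lowest of all on that measure. On the measure of weak genes H4K16R overlapped the control only through replicate 3, at 0.050. Its replicates 1, 2 and 4 were at -0.081, -0.052 and -0.138, below the control libraries at -0.026 to 0.047.

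**Figure D2:**
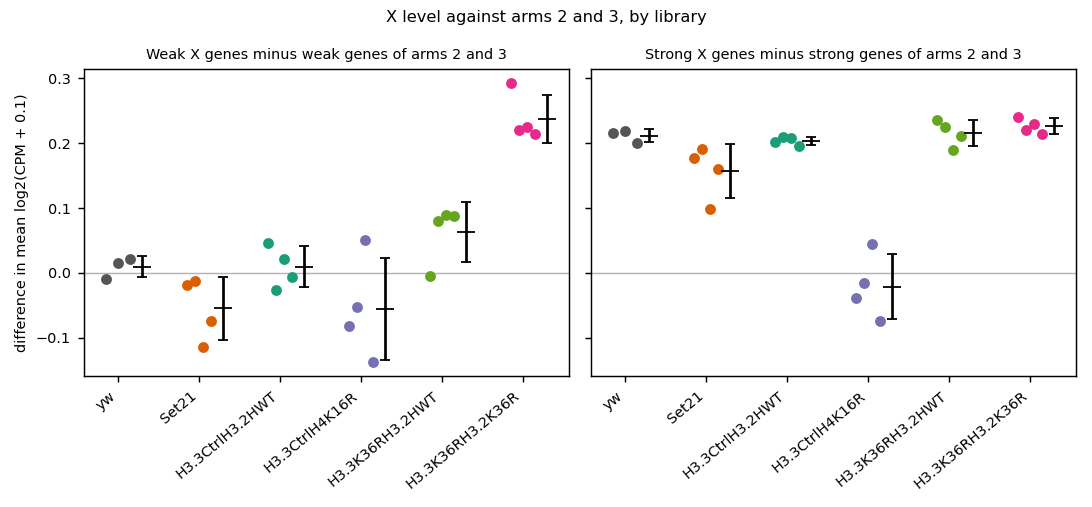
Difference in mean log2(CPM + 0.1) between X genes and genes of arms 2 and 3 in each library, weak genes at left and strong genes at right; points are libraries and bars the mean and SD. Weak X genes stand out in combined H3K36R at 0.214 to 0.292, and strong X genes in H4K16R, with a mean of -0.021.

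Markers of other cell types moved in the same libraries. The summed level of the 3 neuronal markers was 1033 to 1191 CPM in combined H3K36R and 813 to 948 in the histone control. That of the epidermal markers Lcp65Ag1 and Cpr67Fa1 was 11.8 to 66 against 132 to 290. The fat body markers Lsp2 and FASN1 summed to 1062 to 1532 CPM against 2455 to 4302, nearly all of it FASN1. The midgut protease markers Jon65Aiii and thetaTry summed to 795 to 1066 against 1506 to 1896. Most of that was Jon65Aiii, at 783 to 1057 against 1430 to 1778, while thetaTry was at 5.63 to 12.4 against 76.0 to 118. The 4 testis markers aly, can, topi and bam summed to 3.12 to 3.82 CPM against 2.09 to 2.58. Most of that sum was topi, at 2.17 to 3.10 against 1.47 to 1.60, while bam was at 0.389 to 0.475 against 0.433 to 0.691. The male markers roX1, roX2 and msl-2 summed to 1600 to 2132 CPM against 1220 to 1700. Of these roX1 was at 1497 to 1992 against 1099 to 1556 and roX2 at 67.3 to 95.4 against 90.8 to 127, so roX2 had the lower mean in combined H3K36R. None of these markers was at 0 in all libraries of either genotype. Their part in the rise of weak X genes was not tested.

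Large rises in combined H3K36R came from genes of several roles. The gene mamo (FBgn0267033, X:13846116-13990527) encodes a BTB zinc finger factor of the germ line. It was at 9.99, 12.2, 10.6 and 9.89 CPM in the 4 combined H3K36R libraries and at 1.52, 1.1, 0.422 and 0.838 in the histone control. All other libraries lay between 0.222 and 1.82 CPM, so combined H3K36R did not overlap any of them. The log2 fold change was 3.46 ± 0.50 against the histone control (edgeR adjusted p = 1.27e-05), 3.60 ± 0.50 against H3.3K36R (adjusted p = 5.2e-06) and 3.32 ± 0.49 against H4K16R (adjusted p = 1.27e-05).

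The mucin gene Muc14A (FBgn0052580, X:16009114-16061722) was at 5.20, 6.11, 4.46 and 5.51 CPM in combined H3K36R and at 0.620, 0.713, 0.283 and 0.544 in the histone control. The highest of the other libraries was yw replicate 2 at 2.71 CPM. Its log2 fold change was 3.3 ± 0.50 against the histone control and 2.34 ± 0.48 against H4K16R (edgeR adjusted p = 2.07e-05 and 0.000364).

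CG15446 (FBgn0031155, X:21095680-21102206) differed between several genotypes. It was at 10.2, 9.78, 7.50 and 8.81 CPM in combined H3K36R, at 1.45, 1.59, 1.1 and 1.36 in H3.3K36R and at 0.645, 0.471, 0.491 and 0.627 in the histone control. In H4K16R it was at 0.146, 0.0950, 0.0463 and 0.0696 CPM. None of these 4 genotypes overlapped another. It rose by 4.02 ± 0.43 on the log2 scale from the histone control to combined H3K36R (edgeR adjusted p = 3.58e-07) and its log2 fold change in H4K16R against that control was -2.63 ± 0.45 (adjusted p = 0.00586). Against H4K16R combined H3K36R was 6.66 ± 0.50 higher (adjusted p = 3.24e-09).

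Cyp6t1 (FBgn0031182, X:21517434-21519218), a cytochrome P450 gene with a single exon, split the genotypes into a high and a low set. It was at 2.52, 2.28, 3.25 and 4.20 CPM in combined H3K36R, at 2.34, 1.56, 1.5 and 1.07 in H3.3K36R and at 1.73, 2.14 and 1.85 in yw. The libraries of the histone control, H4K16R and Set21 all lay between 0.0317 and 0.197 CPM. The controls yw and H3.3CtrlH3.2HWT were thus 1.91 and 0.145 CPM on average, a difference that was not tested. The log2 fold change was 4.39 ± 0.40 for combined H3K36R and 3.47 ± 0.39 for H3.3K36R, each against the histone control (edgeR adjusted p = 4.65e-08 and 6.12e-06). In Set21 against yw it was -3.59 ± 0.40 (adjusted p = 1.26e-06).

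**Figure D3:**
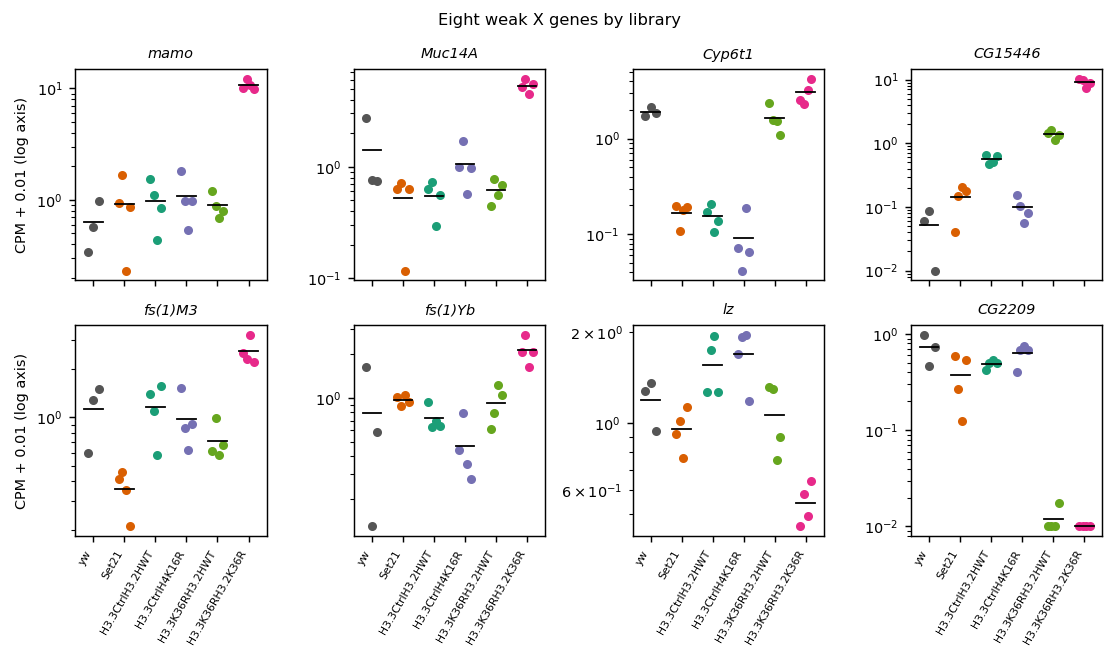
Level of 8 weak X genes in each library, on a log axis of CPM + 0.01, with the mean of each genotype as a line. For mamo, Muc14A, CG15446, fs(1)M3 and fs(1)Yb the combined H3K36R libraries lie above all others, for lz below all others, and CG2209 is at or near 0 in both genotypes with H3.3K36R.

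Among 14 listed genes of the egg shell, yolk and ovary, fs(1)M3 and fs(1)Yb were higher in combined H3K36R against the histone control and none was lower, where 16.4% of all genes tested were higher and 22.8% lower. The median of the list was 0.36, near that of all tested weak X genes at 0.35, and that of all genes tested was -0.02. The gene fs(1)M3 (X:5958207-5964247) acts in the egg shell and in activation of the receptor Torso at the egg's ends. It was at 2.49, 2.30, 3.25 and 2.21 CPM in combined H3K36R and at 1.37, 1.08, 0.574 and 1.55 in the histone control, and the former was 1.16 ± 0.34 higher (edgeR adjusted p = 0.00862). Its exons overlap CG6067, which makes its counts uncertain. The gene fs(1)Yb (X:2720468-2724158), of the piRNA pathway in somatic cells of the ovary, was at 2.07, 2.73, 1.64 and 2.06 CPM against 0.930, 0.622, 0.685 and 0.633. Neither gene overlapped between the genotypes, and fs(1)Yb was 1.57 ± 0.46 higher (adjusted p = 0.00965) and 2.22 ± 0.47 higher than in H4K16R (adjusted p = 0.000558). The 5 chorion genes and the yolk genes Yp1, Yp2 and Yp3 were not called against the histone control. The germ line marker osk, the 1 of 2 listed that was matched, was at 0.0495 to 2.07 CPM in combined H3K36R and at 0.0512 to 0.193 in the histone control, and its part was not tested.

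Of 3 further genes of the egg and 7 of meiosis, 2 and 1 were higher against the histone control and none was lower, beside the same 16.4% and 22.8% of all genes tested. The 1 of meiosis was mamo, described above and also counted among the listed patterning factor genes. The further genes of the egg and of meiosis are outside the list of egg shell, yolk and ovary genes. They were picked by name after their values were seen. The maternal nuclear lamina gene fs(1)Ya, the next gene after fs(1)Yb, was at 0.846, 0.848, 2.19 and 1.79 CPM in combined H3K36R and at 0.653, 0.281, 0.463 and 0.422 in the histone control. Its log2 fold change was 1.64 ± 0.54 (edgeR adjusted p = 0.0191), and the call was lost without control replicate 2 (adjusted p = 0.0609) or combined H3K36R replicate 3 (0.0655). The egg shell gene dec rose by 1.89 ± 0.61 (adjusted p = 0.0167), a call lost without control replicate 4 (0.0520), and its exons overlap an antisense RNA. The third gene of that run, vilya, of meiotic recombination, was not called against the histone control (0.69 ± 0.35) and was 1.65 ± 0.36 higher than in H3.3K36R (adjusted p = 0.000661) and 1.60 ± 0.36 higher than in H4K16R (adjusted p = 0.000948).

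Further rises in combined H3K36R came from nearly silent genes. PPYR1 was at 1.37, 1.03, 1.05 and 0.537 CPM there and at 0 in 3 of the 4 histone control libraries, with 0.137 CPM in the other. It passed the count filter only through combined H3K36R, so its difference is a description. It had an edgeR adjusted p of 0.0116 against the histone control and of 0.153 with DESeq2. CG15056 was at 1.25, 0.975, 1.06 and 0.921 CPM against at most 0.0837 in the histone control (4.59 ± 0.94, adjusted p = 0.000488). CG3457 was at 3.29 to 4.52 CPM in combined H3K36R against 0.0128 to 0.364 in the histone control (4.4 ± 1.04, adjusted p = 0.00204). CG12716 was 5.16 ± 1.12 higher than in H3.3K36R (adjusted p = 0.000582). The testis gene betaNACtes6, which has close copies among the weak X genes, was 3.29 ± 0.80 higher than in H4K16R (adjusted p = 0.00186). In all 3 comparisons of combined H3K36R, which share its libraries, 34 weak X genes (9.71%), PPYR1 among them, were higher and 7 (2.0%) lower. The same held for 11.9% and 18.9% of all genes tested and for 4.99% and 3.57% of the weak genes of arms 2 and 3.

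Falls in combined H3K36R were fewer. The Runx factor gene lz (X:9284649-9303636), which acts in blood crystal cells and in the eye, was at 0.445, 0.573, 0.482 and 0.634 CPM in combined H3K36R and at 1.26, 1.74, 1.94 and 1.25 in the histone control. Combined H3K36R lay below every other library, and the log2 fold change was -1.53 ± 0.24 (edgeR adjusted p = 2.57e-05) and -1.65 ± 0.24 against H4K16R (adjusted p = 7.56e-06). Hml, the hemocyte marker, was at 248 to 288 CPM in combined H3K36R and 185 to 206 in the histone control. The mitochondrial ferritin gene Fer3HCH was at 0.460 to 0.659 CPM against 0.812 to 1.11 (-0.92 ± 0.24, adjusted p = 0.00441). Among 8 listed patterning factor genes 2 were higher against the histone control, mamo among them, and lz and the fork head gene fd19B were lower, where 16.4% and 22.8% of all genes tested were. The call of fd19B (adjusted p = 0.0356) was lost without control replicate 2 or combined H3K36R replicates 1, 2 or 4 (adjusted p = 0.0844 to 0.114).

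Other weak X genes were called in the comparisons that use no library of the rule. Of 11 testis paralogs, genes picked by name after their values were seen, betaNACtes6 was the 1 higher than in H4K16R and none was lower, where 18.3% of all genes tested were higher and 26.8% lower. Against H3.3K36R betaNACtes3 was the 1 higher and SdhBL the 1 lower, where 19.7% and 28.0% of all genes tested were. TrxT and betaNACtes3 were higher than in the histone control and none was lower, where the shares were 16.4% and 22.8%. The calls of betaNACtes3, SdhBL and TrxT were lost when certain single libraries were left out. Among 4 listed genes of cuticle and apical matrix Muc14A and Muc12Ea were higher than in H4K16R and none was lower. The call of Muc12Ea (1.48 ± 0.53, edgeR adjusted p = 0.0261) was lost without H4K16R replicates 2 or 3 or combined H3K36R replicate 1 (adjusted p = 0.0591 to 0.0647), and its exons overlap CG9400.

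The gene karr was at 0.638, 1.02, 0.862 and 0.933 CPM in combined H3K36R and at 0.0830 to 0.425 in the histone control. Its libraries did not overlap between these genotypes. It was 2.02 ± 0.55 higher than in H3.3K36R and 2.47 ± 0.56 higher than in H4K16R (edgeR adjusted p = 0.0042 and 0.000953). The HMG box gene bbx was 1.02 ± 0.16 higher than in H4K16R (adjusted p = 1.57e-05).

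Lower than in H3.3K36R were CG18258 (-1.87 ± 0.40, edgeR adjusted p = 0.000513) and the chorion gene Cp38 (-2.30 ± 0.80, adjusted p = 0.0217). The call of Cp38 was lost without H3.3K36R replicate 2 or combined H3K36R replicates 2 or 4 (adjusted p = 0.05001 to 0.0614). CG43133 was at 0.252 CPM in combined H3K36R and 1.28 in the histone control on average (-2.34 ± 0.48, adjusted p = 0.000442). CG15731, CG3108, CG12723 and CG2961 were called lower than in H4K16R with all libraries, and these calls rested on H4K16R replicate 3, which was at 179, 148, 76.5 and 75.8 CPM. Without that library CG15731 was at -0.32 and CG3108, CG12723 and CG2961 turned to 1.35, 0.80 and 2.28 on the log2 scale, none of them called (adjusted p = 0.853, 0.381, 0.560 and 0.148).

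Along the X, the calls of combined H3K36R against the histone control were spread over all 6 bins of 4 Mb. From the tip of the chromosome on, 11, 9, 5, 11, 10 and 6 genes were higher and 2, 1, 3, 6, 5 and 1 lower. These were of 61, 62, 49, 75, 76 and 27 tested, where 16.4% of all genes tested were higher and 22.8% lower. The mean log2 difference over all members of a bin was 0.65 from 20 Mb on and 0.19 to 0.42 in the bins before. Most genes stayed weak. The group mean passed 2 CPM for 32 of the 365 genes in combined H3K36R, 30 in Set21, 22 in H4K16R, 19 in H3.3K36R, 5 in the histone control and 6 in yw. The count in H4K16R rested on replicate 3: without it 6 genes passed, and no gene was over 2 CPM in all 4 libraries. The rule held the mean over the libraries of the histone control and yw to 2 CPM, so the counts of these 2 genotypes are set by it and are no background for the others. Among the weak genes of arms 2 and 3 the shares were 5.76% in combined H3K36R and 8.68% in Set21, and among weak X genes 8.77% and 8.22%.

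Few weak X genes were called in H3.3K36R alone. Against the histone control 4 were higher and 3 lower of 350, where 1.96% of all genes tested were called, 0.947% higher and 1.02% lower. The libraries did not overlap for 30 weak X genes, against 11% of all genes tested. The 3 lower genes were ppk28, CG2209 and CG42449, and each was also low in combined H3K36R. The water-sensing channel gene ppk28 was at 0.304, 0.382, 0.786 and 0.790 CPM in H3.3K36R, at 0.476 to 0.773 in combined H3K36R and at 1.11 to 2.50 in the histone control (-1.56 ± 0.31 for H3.3K36R, edgeR adjusted p = 0.00804). Its exons overlap an antisense RNA, so its counts are uncertain. CG2209 (X:13022198-13022949) was at 0 in every combined H3K36R library and in 3 of 4 H3.3K36R libraries, and at 0.419 to 0.526 CPM in the histone control and 0.393 to 0.741 in H4K16R. With 3 counts over the 4 libraries as the limit that a count of 0 allows, it was at least 85.2-fold lower in combined H3K36R than in the histone control and at least 110.5-fold lower than in H4K16R.

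CG42449 (X:5683240-5684456) was at 1.25 to 2.18 CPM in the histone control and at 0.910 to 2.29 in H4K16R. It was at most 0.0953 CPM in H3.3K36R and at most 0.0549 in combined H3K36R, and also at most 0.103 in yw and 0.0239 in Set21. Against the histone control its log2 fold change was -4.71 ± 0.86 in H3.3K36R and -5.63 ± 0.91 in combined H3K36R (edgeR adjusted p = 0.0039 and 4.63e-05). The higher genes in H3.3K36R were Cyp6t1, hog, CG11700 and CG43672. The call of hog was lost without control replicate 1 or H3.3K36R replicate 4 (adjusted p = 0.0636 and 0.0925), that of CG11700 without control replicate 4 (0.0534). That of CG43672 was lost without control replicates 1, 2 or 4 or H3.3K36R replicates 2, 3 or 4 (0.0682 to 0.121), and its exons overlap CG33172.

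In H4K16R few weak X genes were called, while calls among strong X genes were nearly all lower. Against the histone control none of the 350 weak X genes was higher and 2 were lower (0.571%), where 1.31% of all genes tested were called, 0.278% higher and 1.03% lower. The libraries did not overlap for 13, against 8.38% of all genes tested. At an unadjusted p below 0.05 there were 35 (10%), against 14.8% of all genes tested. DESeq2 called 9 higher and 4 lower, and 1.39% and 3.17% of all genes tested. Of 1310 strong X genes 1 was higher and 105 (8.02%) were lower. The median log2 fold change was -0.04 in weak and -0.16 in strong X genes, while all genes tested had a median of 0.05. The difference between weak and strong genes was not tested, and the larger SE of weak genes limits what could be called. The lower genes were CG15446, described above, and CG32650, which was at 0.598 to 1.09 CPM against 1.42 to 1.87 (-0.97 ± 0.20, edgeR adjusted p = 0.0169). The call of CG32650 was lost without control replicate 1 or 4 or H4K16R replicate 4 (adjusted p = 0.0554 to 0.0624).

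In Set21 weak X genes were called in about equal numbers in both directions. Against yw 29 were higher (8.29%) and 26 lower (7.43%), where 44.5% of all genes tested were called, 23.4% higher and 21.1% lower, and 13% and 9.20% of the weak genes of arms 2 and 3 were. These counts fell to 16 higher and 11 lower with the axis covariate, to 17 and 22 without yw replicate 3, and to 17 and 20 without yw replicate 4. On that axis Set21 scored 73.1 to 90.0 and yw 6.45 to 12.6, so the covariate also separates these genotypes. A call lost with it, here and below, may be weak or may be a genotype effect taken up by the score. The libraries did not overlap for 61 weak X genes, against 46.0% of all genes tested. The median log2 fold change was -0.10 in weak X genes and -0.04 in the weak genes of arms 2 and 3. Of the 122 genes in the highest tercile of control level 15 were higher and 21 lower, and of the 107 tested in the lowest 5 and 2.

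Some rises in Set21 were large, uneven between libraries and partly shared with single libraries of other genotypes. Others were smaller, such as that of CG32554 (0.945, edgeR adjusted p = 0.00501). CG3108 (X:5777195-5781620) was at 274, 119, 12.6 and 1.74 CPM in Set21 and at 0.289, 0.497 and 0.631 in yw. It was also at 148 CPM in H4K16R replicate 3, while the other H4K16R libraries were at 0.230 to 0.487. It was called in Set21 (7.75 ± 2.31, edgeR adjusted p = 0.0118), but not with the axis of spread as a covariate (adjusted p = 0.102). CG7406 was at 46.4, 12.6, 22 and 9.71 CPM in Set21, at most 0.126 in yw and at 36.1 in H4K16R replicate 3. It was called (8.73 ± 2.78, edgeR adjusted p = 0.0170), but not without yw replicate 2 or 3 (adjusted p = 0.0591 and 0.0645). CG15370 was at 20.8, 4.88, 3.05 and 1.79 CPM against at most 0.0722 in yw (7.85 ± 2.17, adjusted p = 0.00725).

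The summed level of the 365 genes was 266 to 819 CPM in Set21 and 155 to 159 in yw. In H4K16R it was 950.5 CPM in replicate 3 and 145 to 187 in the others. The 10 genes with the largest single-library values, CG3108 and CG15731 first, held 30.8% to 69.2% of that sum in Set21. Without them the mean sum was 200 ± 35.5 CPM in Set21 and 151 ± 2.53 in yw. Of the epidermal markers Lcp65Ag1 was at 488 to 1111 CPM in Set21 and at 351 to 527 in yw, while Cpr67Fa1 was at 6.47 to 10.2 and 15.8 to 27.5. The neuronal markers summed to 318 to 668 CPM in Set21 and to 868 to 933 in yw. The part of these markers and of the axis of spread in the rises was not tested.

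**Figure D4:**
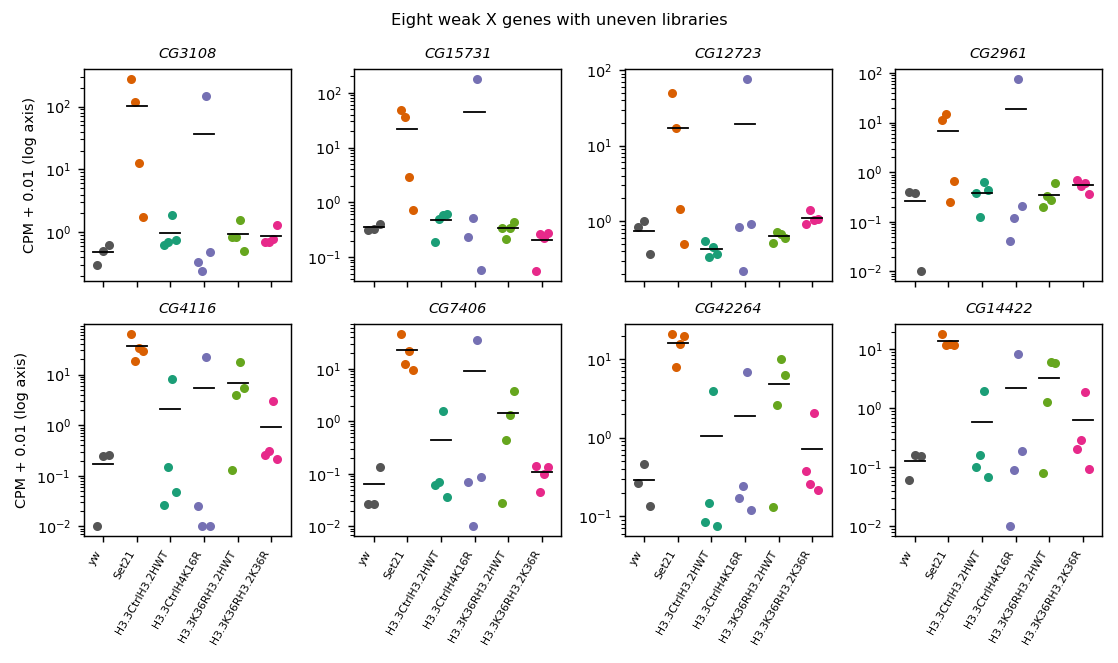
Level of 8 weak X genes with uneven libraries, on a log axis of CPM + 0.01, with the mean of each genotype as a line. Set21 libraries range from 1.74 to 274 CPM for CG3108 and from 9.71 to 46.4 CPM for CG7406, and H4K16R replicate 3 is the single high point of its genotype, at 148 CPM for CG3108.

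Some falls in Set21 had libraries that did not overlap, while others rested on 1 yw library. Besides Cyp6t1, fs(1)M3 was at 0.402, 0.443, 0.344 and 0.199 CPM in Set21 and at 0.586, 1.28 and 1.49 in yw (-1.68 ± 0.37, edgeR adjusted p = 0.00114). The genes hog (-1.38 ± 0.23, adjusted p = 7.3e-05), CG9676 (-2.14 ± 0.41, adjusted p = 0.000347) and the pheromone channel gene ppk23 (-0.84 ± 0.21, adjusted p = 0.00269) were lower, and the groups did not overlap. Among the 14 genes of the egg list fs(1)M3 and swa, which localises bicoid mRNA, were lower and none was higher, where 21.1% of all genes tested were lower and 23.4% higher. The call of swa was lost without yw replicate 4 (adjusted p = 0.284) and with the axis covariate (0.120). Of 4 listed genes of ion channels and synapses, amn of memory and ppk23 were lower, beside the same 21.1% of all genes tested, amn not with the axis covariate (adjusted p = 0.105) and with an exon that overlaps Hers. The call of Muc14A in Set21 (-1.44 ± 0.50) was lost without yw replicate 2 (adjusted p = 0.449), as it was when the axis score was a covariate (0.301).

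Of the 8 patterning factor genes 2 were lower in Set21, dmrt11E among them (-1.01 ± 0.34, edgeR adjusted p = 0.0182), and none was higher, again beside 21.1% and 23.4% of all genes tested. The call of dmrt11E was lost without yw replicate 2 or 4 (adjusted p = 0.0592 and 0.0734), and was also not made when the axis score was a covariate (0.150). Pp1-13C, a catalytic subunit of protein phosphatase 1, fell (-1.35 ± 0.41, adjusted p = 0.0106), but was not called with the axis covariate (0.116). The gene cyr was at 2.02, 0.748, 2.34 and 2.65 CPM in Set21 and at 0.195, 0.171 and 0.496 in yw (2.75 ± 0.85, adjusted p = 0.0127). Its call was lost without yw replicate 3 (0.0598) and with the axis covariate (0.150).

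Set21 and combined H3K36R were compared with different controls and share no library. Of the weak X genes, 16 were called in both, 29.1% of the 55 called in Set21 and 22.9% of the 70 called in combined H3K36R. Of all genes tested 21.9% were called in both, 49.1% of the Set21 calls and 55.7% of the combined H3K36R calls, and of the weak genes of arms 2 and 3 4.21%, against 4.57% of weak X genes. In 14 of the 16 (87.5%) the directions were opposite, as they were for 80.3% of such genes over all genes tested and for 50.0% in the weak genes of arms 2 and 3. Opposite calls thus made up 4.0% of the weak X genes and 17.6% of all genes tested. The 14 divided into 11 lower in Set21 and higher in combined H3K36R and 3 the reverse. Among the 11 were CG11379, CG12698, CG32706, CG32814, CG42854, Cyp6t1, Muc14A, frma, fs(1)M3 and hog, and the 3 were CG14406, CG32554 and CG9514. The difference between the effects was tested in the same edgeR model, a test added after these calls were seen. The 14 were picked by the same values, so this describes them. It was called for all 14, with adjusted p of at most 0.00443, where 51.5% of all genes tested were called, and for 86 of the 350 weak X genes. For CG12698 the effects were -1.82 in Set21 and 3.60 in combined H3K36R.

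Of these 14 genes, Cyp6t1, fs(1)M3, hog and CG32554 kept both calls when any single library was left out. For Cyp6t1 the controls themselves stood apart, at 1.91 CPM in yw and 0.145 in the histone control on average, with Set21 at 0.158. The calls of Muc14A, CG12698 and CG11379 in Set21 each rested on 1 yw library, replicate 2 for Muc14A and CG12698 (adjusted p = 0.449 and 0.448 without it, edgeR) and replicate 4 for CG11379, which had no count in the other yw libraries. Those of CG14406, CG32814, frma and CG9514 in Set21 were lost without any of several libraries, yw replicate 2 among them (adjusted p = 0.0591, 0.174, 0.159 and 0.0657). The calls of CG32706, CG42854 and CG9514 in combined H3K36R were lost without any of several libraries, control replicate 2 among them (adjusted p = 0.0652, 0.0590 and 0.0874). With the axis score as a covariate, which also separates Set21 from yw, 7 of the 14 were not called in Set21. The log2 fold change then was -0.02 for frma, 0.73 for CG9514, 2.35 for CG14406, -0.56 for CG32814, -0.97 for CG32706 and -0.87 for Muc14A (adjusted p = 0.973, 0.428, 0.152, 0.150, 0.0785 and 0.301), and CG11379 had an adjusted p of 0.0837. In combined H3K36R the covariate ended the calls of CG32706 and CG9514 (adjusted p = 0.0605 and 0.0648). The genes called higher in both were CG15446 and CG42300, the second of which has a close copy in CG42299. With yw replicate 2 left out, neither was called in Set21 (adjusted p = 0.0511 and 0.107), nor with some other single libraries left out, and CG42300 was not called with the axis covariate (0.207).

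**Figure D5:**
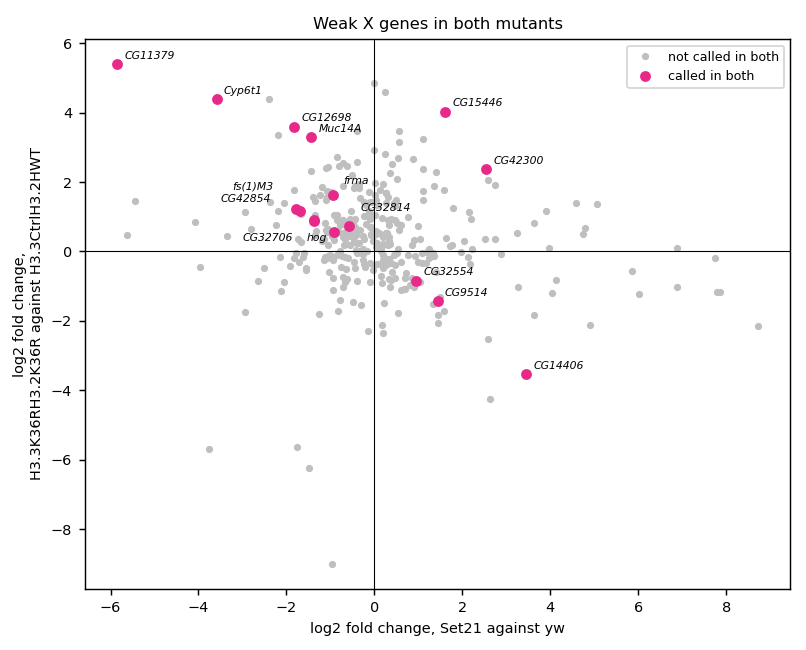
Log2 fold change of the 350 tested weak X genes in Set21 against yw (horizontal) and in combined H3K36R against the histone control (vertical), with genes called in both marked and 15 of them named. Of 16 such genes, 11 lie at upper left, 3 at lower right and 2 at upper right.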

How the data were processed

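The authors deposited read counts per gene in 1 table of 23 libraries of total RNA from L1 larvae, whole numbers for 17606 identifiers. STAR 2.7.2a and Subread 2.0.3 were used, per the submitters' processing notes. The genome build, the annotation and the strand setting were not given in the sources used here. Of the members' counts from 5 to below 20, 65.1% of 1821 were even, and what made them so is not given. Symbols and coordinates were taken from BDGP6.54, which matched 17527 identifiers (99.55%).

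Genes were kept with filterByExpr at a minimum count of 10 (14365 kept) and scaled by TMM. One quasi-likelihood model with 1 mean per group and robust dispersions was fitted to all 23 libraries in edgeR 4.0.16 under R 4.3.3, with 17 residual degrees of freedom. Tests were two-sided. Printed CPM use the TMM factors, and the level rule used column totals. The test was checked on simulated counts with the same dispersion for every gene and no library that stood apart. That check does not cover the spread of weak genes seen here. Labels do not say that replicates were independent beyond being separate samples, so p-values measure the spread between samples. The genes and lists were chosen with earlier results of these data known. For each comparison the text names called genes without overlap and with at least 0.5 CPM in the higher group, the 6 with the largest change in each direction among named symbols and 2 among CG symbols, and listed genes called in any comparison. Others named were chosen after their values were seen. One gene that meets the rule is not reported here. Alternatives were RLE factors, autosomal TMM factors, no filter, a filter on the mean count, DESeq2 1.42.0, a replicate block, a covariate for the axis of spread, other level and distance limits, other pseudocounts and each library left out.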

Additional observations from a re-analysis of the deposited data

Results flagged for a closer look

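Groups of 4 libraries were checked for a single library far from the other 3, in the named genes and in the level of the whole set. Chance flags about 1 in 20 groups. PPYR1 had 1 library with counts in the histone control, at 0.137 CPM, and 1 in H4K16R, at 0.0770 CPM, with the other 3 of each genotype at 0. In combined H3K36R the only counts of fd19B were in a library at 0.00634 CPM, and iav, a TRPV channel gene, had 1 low library at 2.09 CPM.

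In H4K16R the alkaline phosphatase gene Alp11 had 1 library at 2.31 CPM, replicate 3, against 0.0696 to 0.216 in the others, and ppk28 had 1 low library at 1.17 CPM. In Set21 CG15370 had 1 library at 20.8 CPM and Muc14A 1 at 0.107 CPM. The summed level of the 365 genes in H4K16R was 950.5 CPM in replicate 3. The level of weak X genes minus weak genes of arms 2 and 3 had 1 low library at -0.00543 in H3.3K36R and 1 high library at 0.292 in combined H3K36R, and both comparisons of that level kept their direction without any single library.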

How the results depend on the processing

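The shift of weak X genes minus weak genes of arms 2 and 3 kept its direction in all 6 comparisons under every alternative run, and more weak X genes stayed higher than lower in the 3 of combined H3K36R. In Set21 the balance of 29 higher and 26 lower turned under several, among them levels taken from the histone control (26 and 27) and autosomal TMM factors (27 and 29). The mean log2(CPM + 0.1) of weak X genes in Set21 minus yw was 0.105 with all 365 genes and -0.0130 without the 10 of the largest single-library values. Of single genes, CG3108, CG2961, CG12723 and CG9518 in combined H3K36R against H4K16R turned to 1.35, 2.28, 0.80 and 0.0314 without H4K16R replicate 3, and the first 3 to 0.48, 1.39 and 0.20 with the axis covariate. Their lowest values with 1 library left out were -5.84, -5.54, -4.55 and -2.53. CG11379 in Set21 ranged from -6.44 to 0, the latter without yw replicate 4, when no library of either group had a count. With the axis of spread as a covariate, 16 weak X genes were higher and 11 lower in Set21, whose libraries all scored above those of yw on it. In H3.3K36R against the control, 10 were higher with DESeq2 and 7 with the axis covariate. In H4K16R against the control DESeq2 gave 9 higher and 4 lower, levels taken from yw gave 1 higher, and a distance of 1500 kb from roX gave 1 lower. With a pseudocount of 1 the shift of weak X genes minus weak genes of arms 2 and 3 was -0.00739 in Set21, and in combined H3K36R 0.0896 against the control, 0.0671 against H3.3K36R and 0.103 against H4K16R. With 0.02 the latter 3 were 0.299, 0.231 and 0.393. Replicate numbers were not taken to pair the libraries, since the labels name no shared source and not every same-numbered pair correlated: 14 of 55 had a correlation of deviations over 0.1, against 11 of 165 with other numbers. That 13 of 23 libraries correlated best with their own number is a hint from the data, not the design. With the replicate block 9 were higher and 6 lower in H3.3K36R, and the other counts stayed within 1.5 times. Named calls not made with it were unc against the control (adjusted p = 0.0710), CG9514 in Set21 and against the control (0.122 and 0.0555), CG11379 in Set21 (0.0533), and CG15731, CG3108, CG12723, CG2961 and CG9518 against H4K16R (0.0577 to 0.237). Leaving out 1 library gave 17 to 27 higher and 20 to 29 lower in Set21, 2 to 7 and 3 to 4 in H3.3K36R, and 0 and 1 to 4 in H4K16R. For combined H3K36R it gave 43 to 49 and 14 to 18 against the control, 46 to 56 and 13 to 20 against H3.3K36R, and 57 to 69 and 15 to 28 against H4K16R. The low count of 17 in Set21 came without yw replicate 3 or 4. In H3.3K36R 2 were higher without control replicate 1 or 4 or H3.3K36R replicate 4, and 7 without its replicate 1. In H4K16R 1 was lower without control replicate 1 or 4 or H4K16R replicate 4, and 4 without its replicate 3. Leaving out 1 library gave a shift of -0.08 to -0.04 in Set21, 0.04 to 0.08 in H3.3K36R, -0.10 to -0.04 in H4K16R and, for combined H3K36R, 0.21 to 0.24, 0.15 to 0.18 and 0.27 to 0.33. Low counts limit what could be called: the median SE of weak genes was 0.67 on the log2 scale against 0.13.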

Other observations

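Among genes of the cilia picked by name, unc was 1.75 ± 0.46 higher in combined H3K36R than in H4K16R (edgeR adjusted p = 0.00323), at 0.676, 0.721, 0.634 and 0.329 CPM against 0.0556 to 0.269, with an exon that overlaps another gene. The dynein heavy chain gene Dhc16F was 1.28 ± 0.38 higher (adjusted p = 0.00800) and the TRPV channel gene iav 0.94 ± 0.23 higher (adjusted p = 0.00187). In all, 3 of 7 such genes were higher and none lower in that comparison, where 18.3% and 26.8% of all genes tested were. Against the histone control only unc of the 7 was called (1.17 ± 0.45, adjusted p = 0.0421). That call was lost without any of the control replicates 1, 2 and 3 or combined H3K36R replicates 1, 2 and 3 (adjusted p = 0.0518 to 0.116).

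Oxidoreductase genes of the glucose-methanol-choline family among the weak X genes, picked by name after their values were seen, included called rises in Set21. In that comparison 23.4% of all genes tested were higher. CG9503 was at 15, 6.01, 10.5 and 11.2 CPM in Set21 and at 0.475, 0.565 and 0.794 in yw (4.13 ± 0.83, edgeR adjusted p = 0.000693). It was lower in combined H3K36R than in H3.3K36R (-2.27 ± 0.68, adjusted p = 0.00917). CG9514 was at 7.51, 1.65, 2.16 and 1.09 CPM in Set21 (1.44 ± 0.58, adjusted p = 0.0492), a call lost without any single yw library or without Set21 replicate 1 (0.0657 to 0.400). CG9522 was called (3.63 ± 1.45, adjusted p = 0.0499), a call lost without any 1 of the 7 libraries (0.0518 to 0.126). The call of CG9522 was also lost with autosomal TMM factors (0.0506) and with no filter (0.0579). With the axis covariate its log2 fold change was 0.46 (adjusted p = 0.519). CG12398, Eo and CG9518 were not called in Set21 and stood at -0.09, 1.04 and 0.90 on the log2 scale.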
